A study of Mus musculus with 10 samples.

Results

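Histone acetyltransferases transfer an acetyl group from acetyl-CoA to lysines of histones, which loosens chromatin and creates docking sites for bromodomain proteins. They fall into families with different partners: p300 and CBP are large coactivators brought to enhancers and promoters by many transcription factors, the GNAT enzymes GCN5 and PCAF work inside the SAGA and ATAC complexes, the MYST enzymes work inside complexes such as TIP60, MSL and MOZ, and HAT1 acetylates newly made histone H4 before it is packed into chromatin. SIRT1, the enzyme whose gene was targeted in the leukemias studied here, works in the opposite direction and removes acetyl groups from histones and other proteins. The 10 genes described are those for p300 (Ep300), CBP (Crebbp), GCN5 (Kat2a), PCAF (Kat2b), TIP60 (Kat5), MOF (Kat8), MOZ (Kat6a), MORF (Kat6b), the nuclear receptor coactivator SRC-3 (Ncoa3) and HAT1 (Hat1). They were chosen by name as acetyltransferase genes outside the KAT7 complex, with earlier results of these data known. All 10 were among the 20813 genes of the expression table.

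RNA was sequenced from leukemic spleens of C57BL/6 mice carrying a T-cell acute lymphoblastic leukemia (T-ALL), a cancer of immature T cells. All the leukemias carried a conditional Sirt1 allele and had been injected into the veins of recipients irradiated below the lethal dose, so the controls carried the allele too. The 5 spleens labelled Sirt1-deleted (replicates 7, 8, 10, 11 and 12) have titles with the abbreviation TMX, and the 5 control spleens (replicates 2 to 6) have titles with VEH. The protocol names tamoxifen in corn oil and corn oil alone as the treatments, both injected into the peritoneum. The titles and the genotype labels divide the samples in the same way, so the treatment and the deletion cannot be told apart. The Cre driver, the ages and the time of harvest are not given in the sources used here, nor is it said whether the spleens carried separate leukemias, so the p-values measure the spread between these samples only.

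Values are the deposited normalized counts per gene, with sample totals from 33.66 M (mega) to 34.47 M, and the depth before normalization is unknown. The gene-level value of Sirt1 did not separate the groups: it averaged 1873 ± 146 (SD, n = 5) in the spleens labelled Sirt1-deleted and 1811 ± 62.5 (n = 5) in the controls, a log2 difference of 0.05 (limma adjusted p = 0.568). A gene-level value does not check the deletion of some of its exons. Markers of other cells of the spleen did differ. Of 16 neutrophil markers 15 were called higher in the spleens labelled Sirt1-deleted, with summed counts of 29180 to 101900 against 9232 to 12740, and 13 of 16 macrophage and monocyte markers were called higher, with sums of 5088 to 8425 against 2988 to 3400. The 12 T-lineage markers summed to 144800 to 164200 against 166800 to 177400, and that gap lay in 1 gene, Tcf7, a T-cell transcription factor, which fell from a mean of 77941 to 58426. The other 11 summed to 95450 to 101678 against 90666 to 98998, which overlapped. Of the 12, 1 was called higher and 3 lower, against 4 higher and 1 lower after upper-quartile rescaling and 2 and 2 after quantile normalization. No T-lineage, neutrophil or macrophage marker was at 0 in any sample. In whole spleens, fewer cells of a type and less RNA per cell cannot be told apart. Replicates 10 and 11 lay nearest to the controls on the leading principal component of all tested genes (scores of 9.41 and 12.9, against 39.2 to 52.1 for the other spleens labelled Sirt1-deleted and -46.1 to -22.0 for the controls), so counts are also given without them. They were singled out on these same values, so calls gained without them are not read as support.

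Of the 10 acetyltransferase genes, 2 rose (Crebbp and Kat2b), 3 fell (Kat6a, Ncoa3 and Ep300) and 5 were not called (Kat2a, Kat5, Kat8, Kat6b and Hat1) at a limma adjusted p under 0.05. All 10 passed the filter of a mean normalized count of at least 10, and their values ran from 638 to 7025. The background is high: of the 15276 genes tested, 36.1% were called, 16.8% as risen and 19.4% as fallen, and the 5 called members of 10 are read against that share. The groups did not overlap for 4 members (Crebbp, Kat2b, Kat6a and Ncoa3), against 24.0% of all tested genes. The median log2 difference of the members was -0.09, and that of all tested genes was -0.00014. Without replicates 10 and 11 the same 2 genes rose and 5 fell, where 45.3% of all tested genes were called (21.0% risen, 24.4% fallen). Those 5 were Kat6a, Ncoa3, Kat6b, Kat5 and Hat1, while Ep300 lost its call. Without replicates 7 and 12, which had the highest Crebbp values, 2 rose and 3 fell, where 20.2% of all tested genes were called (9.02% risen, 11.2% fallen).

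**Figure D1:**
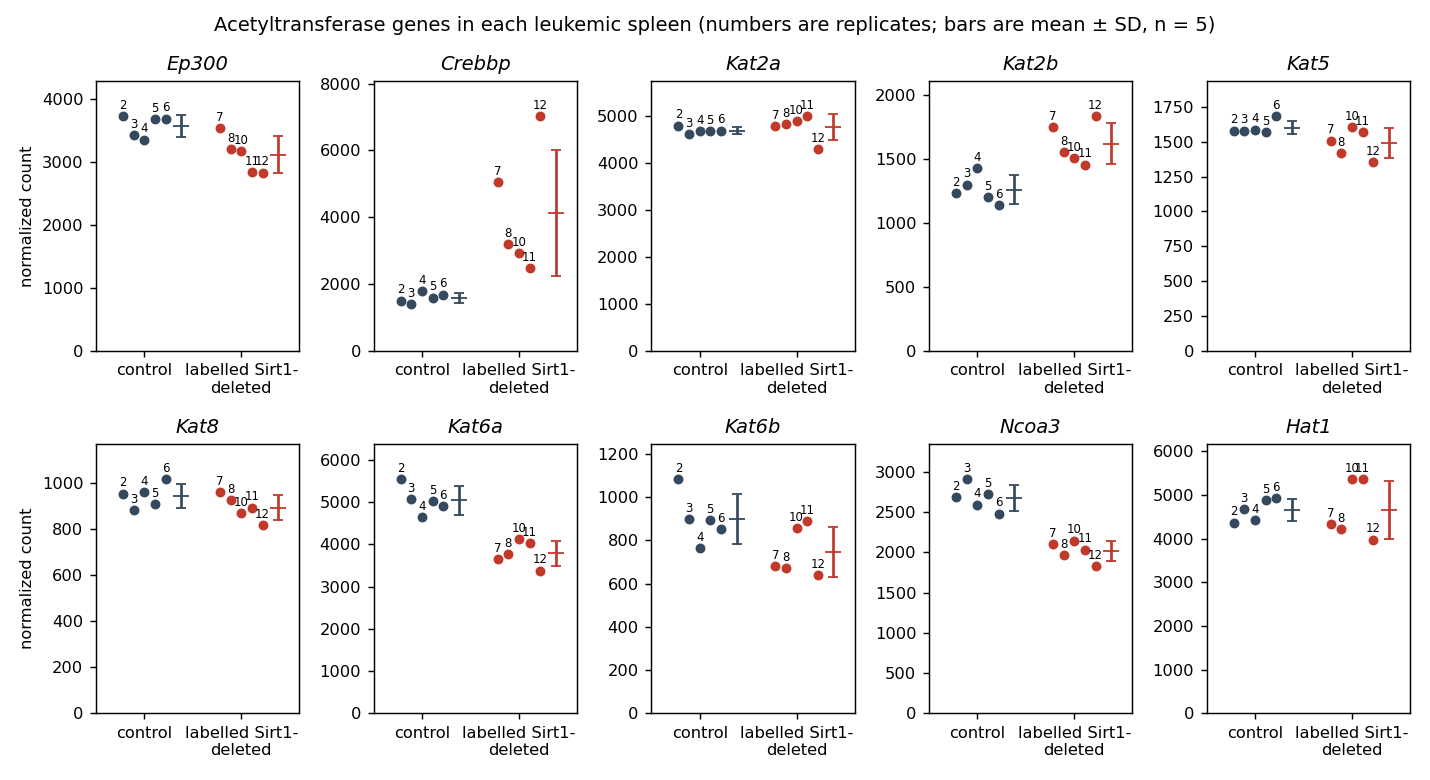
Normalized counts (vertical axes from 0) of the 10 acetyltransferase genes in each leukemic spleen. Points are single spleens with their replicate numbers and bars are mean ± SD (n = 5 per group); the groups are apart for Crebbp, Kat2b, Kat6a and Ncoa3, and replicate 12 is the highest or lowest of its group in all 10 panels.

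Crebbp encodes CBP, a coactivator that binds CREB and many other transcription factors and is recurrently mutated in acute lymphoblastic leukemia. Its normalized counts were 5056, 3203, 2918, 2479.7 and 7025 in replicates 7, 8, 10, 11 and 12 of the spleens labelled Sirt1-deleted. The controls, replicates 2 to 6, had 1499, 1404, 1785, 1589 and 1679.9. Every spleen labelled Sirt1-deleted was above every control, with replicates 12 and 7 far above the rest, and the controls lay close together. The means were 4136 ± 1890 (SD, n = 5) and 1592 ± 149 (n = 5). Fold values here and below come from the mean log2 values, not from these means of counts. For Crebbp the difference was 2.41-fold (log2 1.27, SE 0.23, 95% interval 0.78 to 1.77, limma adjusted p = 0.00188). The coefficient of variation was 45.7% in the spleens labelled Sirt1-deleted and 9.36% in the controls, and the log2 SD of Crebbp in the former was at the 90.7 percentile of all tested genes. The log2 difference was 0.85 (adjusted p = 0.00122) without replicates 7 and 12 and 1.61 without replicates 10 and 11.

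Ep300 encodes p300, the closest relative of CBP and a coactivator of NOTCH1, the receptor most often mutated in T-ALL. Its counts were 3531, 3198, 3164, 2834 and 2827 in replicates 7, 8, 10, 11 and 12, and 3722, 3417, 3350, 3673 and 3683 in control replicates 2 to 6. The groups overlapped: replicate 7 lay within the control range and the other 4 lay below every control. The mean fell from 3569 ± 172 (n = 5) to 3111 ± 293 (n = 5), a log2 difference of -0.20 (SE 0.07, 95% interval -0.34 to -0.06, limma adjusted p = 0.0290). The call was lost in 10 of 20 alternative settings, among them upper-quartile rescaling (-0.12, adjusted p = 0.140) and leaving out replicate 11 (adjusted p = 0.0625), replicate 12 (0.0654) or control replicate 2 (0.0691), 5 (0.0660) or 6 (0.0629). It was also lost without replicates 10 and 11 together (adjusted p = 0.0731), and the difference was negative in each.

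The balance of this pair of relatives was compared as the log2 ratio of their normalized counts within each spleen, in which the scale of the library cancels. The ratio of Crebbp to Ep300 was 1.43, 1.00, 0.922, 0.875 and 2.48 in replicates 7, 8, 10, 11 and 12, and 0.403, 0.411, 0.533, 0.433 and 0.456 in control replicates 2 to 6. All controls had less than all spleens labelled Sirt1-deleted. Crebbp alone already separated the groups, with a log2 difference of 1.27, so the ratio is no independent support. The log2 ratio was 0.30 ± 0.63 against -1.17 ± 0.16 (n = 5 each), a difference of 1.47 (exact two-sided permutation test p = 0.00794, adjusted p = 0.0238 over 3 pairs, the smallest p that 5 against 5 samples allow being 0.00794). Without replicates 7 and 12 the difference was 1.07 and the groups were still apart. The exact permutation test then gave p = 0.0179 (adjusted p = 0.0536), and 0.0179 is the smallest p that 3 against 5 samples allow.

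The values of Crebbp also depend on which reads were assigned to it, so its transcripts were searched for letters that occur elsewhere. Crebbp (ENSMUSG00000022521.10) lies on the minus strand at chr16:4081328-4213997 (mm10), and 8 transcripts are annotated to it. Of its 13672 distinct 31-letter words, 207 (1.51%) also occur, on either strand, in transcripts of other genes, and these words reach 1555 other genes. The median share over the tested genes was 2.48%, so the share is not high, but the number of genes is the largest among the 10 members. The longest shared stretch lies in Crebbp-202, a transcript of 3134 bases annotated as a retained intron, at its bases 2690 to 2812 (chr16:4086932-4087054, minus strand), and it overlaps no coding or untranslated part of the protein-coding transcripts. It is shown because its letters are the most widely shared in the gene, with capitals for the 31-letter word that 718 other genes also hold:
Crebbp-202: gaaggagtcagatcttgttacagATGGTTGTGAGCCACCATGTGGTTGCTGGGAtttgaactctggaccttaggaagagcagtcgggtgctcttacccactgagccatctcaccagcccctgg
A table of values per gene does not show how much of the Crebbp value came from this transcript. Kat8 shares words with 911 other genes and was not called. The part of shared letters in the Crebbp difference was not tested.

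The genes whose pattern over the 10 spleens was most like that of Crebbp were sought among 10751 genes with a mean count of at least 100, by the root mean square difference of log2 values after each gene was centred. They were Gm17132, annotated as a pseudogene (0.194), Vmn2r114, a vomeronasal pheromone receptor (0.208), and Ccnb1ip1, a ligase known from meiotic recombination (0.232). Of their 31-letter words 81.4%, 28.9% and 12.4% also occur in other genes, against a median of 2.48% over the tested genes. Which reads belong to these 3 genes is therefore uncertain. Gm17132 had counts of 700.4, 535, 411, 362 and 911 in replicates 7, 8, 10, 11 and 12, and 171 to 251 in the controls. Its order over the spleens labelled Sirt1-deleted was that of Crebbp, but it was picked for likeness on these same values, so the match is no support. Its log2 difference was 1.37, that of Vmn2r114 was 1.10 and that of Ccnb1ip1 was 1.44. The genes most like Ep300 were Atp6v0a2, a subunit of the proton pump of acidic organelles (0.059), Iqgap2, a scaffold protein of the cell cortex (0.059), and AW549877 (0.0615).

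Olfactory and vomeronasal receptor genes, a set chosen after Vmn2r114 had been seen, were then summed per spleen over the 738 such genes in the table, whose median mean count was 9.07. The sums were 30385, 27178, 24527, 23795 and 33413 in replicates 7, 8, 10, 11 and 12, and 20973 to 22915 in the controls. The 2 groups did not overlap, and the order of the 5 spleens labelled Sirt1-deleted (12, 7, 8, 10, 11) was the order of their Crebbp counts. Vmn2r114 had itself been picked for likeness to Crebbp over these spleens, so this match is no independent support. The neutrophil marker sums were 60920, 101900, 29180, 40150 and 45360 in replicates 7, 8, 10, 11 and 12. The macrophage and monocyte marker sums were 6451, 8425, 5088, 5362 and 6642 in the same replicates. The controls had 9232 to 12740 and 2988 to 3400. In both marker sets replicates 7, 8 and 12 lay above replicates 10 and 11, as for Crebbp. The highest sum was in replicate 8, whereas Crebbp was highest in replicate 12. The part of any of these sets in the Crebbp difference was not tested.

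**Figure D2:**
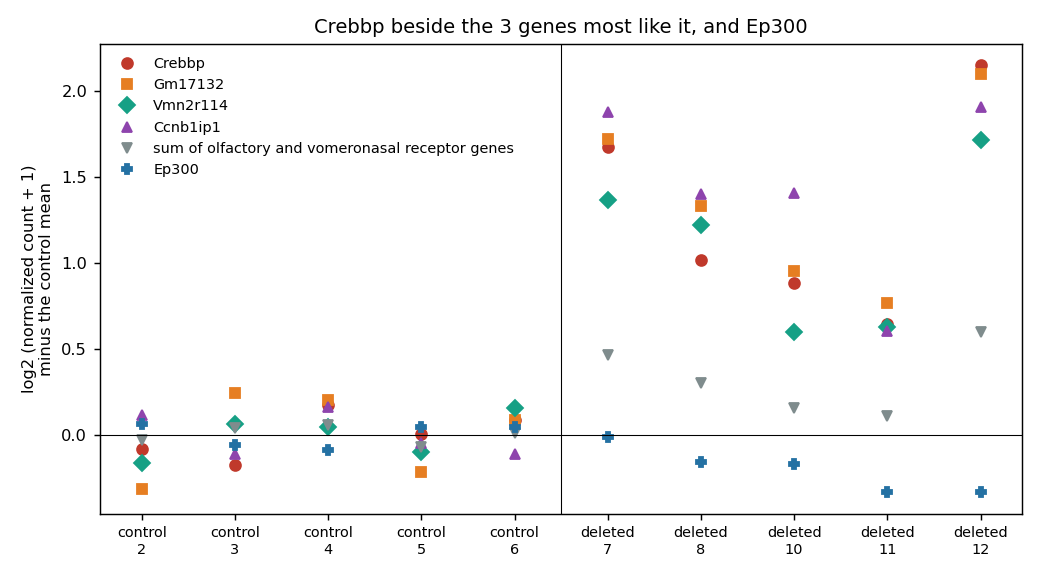
Log2(normalized count + 1) minus the mean of the controls (vertical axis) for Crebbp, the 3 genes most like it, the summed olfactory and vomeronasal receptor genes, and Ep300, in each spleen (horizontal axis; "deleted" stands for the spleens labelled Sirt1-deleted). Crebbp and its 3 like genes are high in replicates 7 and 12 and lower in replicate 11, and Ep300 lies below 0 in all 5 spleens labelled Sirt1-deleted.

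Kat2a and Kat2b encode GCN5 and PCAF, the alternative catalytic subunits of SAGA and ATAC. Kat2b rose: its counts were 1751, 1557, 1505, 1457 and 1835 in replicates 7, 8, 10, 11 and 12 and 1234, 1299, 1429, 1201 and 1138 in control replicates 2 to 6. The groups did not overlap, with replicates 12 and 7 highest as for Crebbp, although replicate 11 lay close to the highest control. The means were 1621 ± 164 and 1261 ± 111 (n = 5 each), a 1.28-fold difference (log2 0.36, SE 0.08, 95% interval 0.19 to 0.53, limma adjusted p = 0.00499), and 0.26 (adjusted p = 0.0344) without replicates 7 and 12. Of its 31-letter words 14.6% occur in 1 other gene, the pseudogene Kat2b-ps, which had mean counts of 2.04 and 1.57.

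Kat2a had counts of 4787, 4834, 4895, 4997 and 4289 in replicates 7, 8, 10, 11 and 12, and 4798, 4612, 4672, 4676 and 4689.7 in control replicates 2 to 6. Replicates 8, 10 and 11 lay above all controls and replicate 12 below all of them. The log2 difference was 0.02 (95% interval -0.08 to 0.12, limma adjusted p = 0.774), and the coefficient of variation was 5.77% in the spleens labelled Sirt1-deleted and 1.44% in the controls. The ratio of Kat2b to Kat2a overlapped between the groups, with 0.292 in replicate 11 and 0.306 in control replicate 4. Its log2 value was -1.56 ± 0.22 against -1.90 ± 0.13 (n = 5 each), a difference of 0.34 (exact two-sided permutation test p = 0.0159, adjusted p = 0.0238 over 3 pairs). That call was lost without control replicate 5 (adjusted p = 0.0595) or 6 (adjusted p = 0.0714), and without replicates 7 and 12 (0.20, adjusted p = 0.0714), all by the exact permutation test.

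Among the MYST enzymes, Kat6a encodes MOZ, which acetylates histone H3 and is needed for blood stem cells. Kat6a had counts of 3659.6, 3775, 4122, 4027 and 3379 in replicates 7, 8, 10, 11 and 12, and 5548, 5078, 4638, 5028 and 4897 in control replicates 2 to 6. Every spleen labelled Sirt1-deleted lay below every control, and replicates 10 and 11 lay nearest to them. The mean fell from 5038 ± 332 to 3792 ± 297 (n = 5 each), a 0.752-fold level (log2 -0.41, SE 0.06, 95% interval -0.55 to -0.27, limma adjusted p = 8.95e-04).

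Kat6b encodes MORF, the relative of MOZ that works in the same complexes. Its counts were 680.1, 669.5, 857, 887 and 638 in replicates 7, 8, 10, 11 and 12, and 1083, 899, 764, 892 and 851 in control replicates 2 to 6. Replicates 7, 8 and 12 lay below all controls and replicates 10 and 11 lay within them. The log2 difference was -0.27 (SE 0.11, 95% interval -0.52 to -0.03) and was not called (limma adjusted p = 0.0792). Without replicates 10 and 11, a choice made on these same values, it was -0.43. It passed without replicate 10 (-0.32, adjusted p = 0.0392), replicate 11 (-0.34, adjusted p = 0.0331) or control replicate 4 (-0.33, adjusted p = 0.0497) alone. The log2 ratio of Kat6b to Kat6a was -2.35 ± 0.13 against -2.49 ± 0.09 (n = 5 each), a difference of 0.14 (exact two-sided permutation test p = 0.0794, adjusted p = 0.0794 over 3 pairs).

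Kat5 encodes TIP60, which acetylates histones and the DNA damage kinase ATM, and its counts were 1509, 1417, 1607, 1572 and 1353 in replicates 7, 8, 10, 11 and 12. The controls had 1581, 1581, 1588, 1572 and 1684 in replicates 2 to 6, so replicates 7, 8, 11 and 12 lay below every control, replicate 11 by less than 1 count. The log2 difference was -0.10 (95% interval -0.23 to 0.02, limma adjusted p = 0.172), and -0.17 without replicates 10 and 11. Kat5 overlaps Rnaseh2c, a subunit of an RNase that cuts RNA in DNA hybrids, on the opposite strand, and 10.6% of its 31-letter words occur in that gene. Rnaseh2c rose from 1938 ± 124 to 2247 ± 162 (n = 5 each, log2 0.21, adjusted p = 0.0197). The libraries were strand-specific per the labels, but whether quantification used the strand is not given in the sources used here, so the values of this overlapping pair are uncertain.

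Kat8 encodes MOF, the enzyme that acetylates histone H4 in the MSL and NSL complexes. Its counts were 817 to 961 in the spleens labelled Sirt1-deleted and 881 to 1017 in the controls, which overlapped. The log2 difference was -0.08 (95% interval -0.22 to 0.06, limma adjusted p = 0.345), and its sign turned under upper-quartile rescaling (0.0017).

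Ncoa3 encodes SRC-3, a coactivator that links nuclear receptors to p300 and CBP. Its counts were 2097, 1965, 2143, 2033 and 1832 in replicates 7, 8, 10, 11 and 12 and 2681, 2909.8, 2592, 2723 and 2479 in control replicates 2 to 6. All spleens labelled Sirt1-deleted lay below all controls, with a gap between the groups. The mean fell from 2677 ± 160 to 2014 ± 122 (n = 5 each), a 0.752-fold level (log2 -0.41, SE 0.06, 95% interval -0.54 to -0.28, limma adjusted p = 6.21e-04). Ncoa3 overlaps Sulf2, an enzyme that trims heparan sulfate, which had a mean count of 56.3 against 35.1.

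Hat1 encodes the enzyme that acetylates new histone H4 during DNA replication. Its counts were 4330, 4217, 5372, 5370 and 3982 in replicates 7, 8, 10, 11 and 12, and 4373, 4673, 4432, 4880 and 4935 in control replicates 2 to 6. Its spleens labelled Sirt1-deleted split to both sides of the controls: replicates 10 and 11 lay above every control and replicates 7, 8 and 12 below every one. The log2 difference was -0.01 (95% interval -0.20 to 0.17, limma adjusted p = 0.936). Without replicates 10 and 11, which lay above every control, it was -0.16. The sign of the difference changed in 7 of 20 alternative settings.

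**Figure D3:**
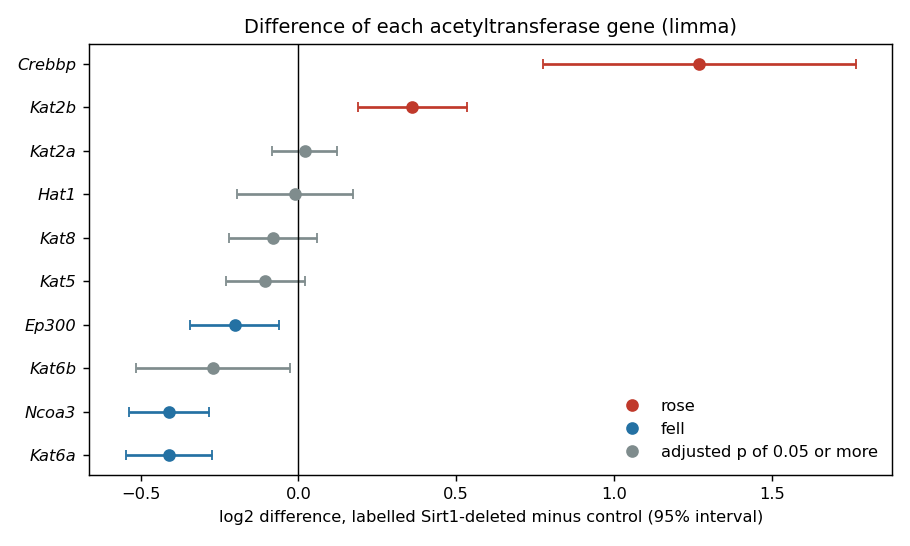
Log2 difference of each acetyltransferase gene, labelled Sirt1-deleted minus control, with its 95% interval (horizontal axis). Crebbp has the largest difference and the widest interval (0.78 to 1.77), and the intervals of Kat2a, Hat1, Kat8 and Kat5 include 0.

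The spleens labelled Sirt1-deleted varied more than the controls in all 10 genes, as measured by the SD of the log2 values, against 66.7% of all tested genes. The median log2 SD over all tested genes was 0.185 in the former and 0.134 in the latter. Replicate 12 held the highest or the lowest value of its group in 10 of 10 members (lowest in 8, highest for Crebbp and Kat2b), against 51.9% of all tested genes. Replicate 10 did so in 4 members, replicate 11 in 4, replicate 7 in 2 and replicate 8 in 0. The members come from the same 10 libraries, so these counts are no independent observations.

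Levels of different genes were compared as normalized counts per kilobase of the longest protein-coding transcript. In the controls Hat1 was highest (2453 ± 134 per kilobase, SD, n = 5), followed by Kat2a (1540), Kat5 (743), Kat8 (598), Kat6a (553), Ep300 (373), Ncoa3 (355), Kat2b (271), Crebbp (147 ± 13.8) and Kat6b (117). The ranges over the controls overlapped between Kat8 and Kat6a, between Ep300 and Ncoa3, and between Crebbp and Kat6b. In the spleens labelled Sirt1-deleted Crebbp averaged 382 ± 175 per kilobase, beside 416 for Kat6a, 348 for Kat2b and 325 for Ep300. Its range of 229 to 649 took in the means of these 3 genes, so its place among them is not set, and without replicate 12 it averaged 316, beside 337 for Kat2b and 333 for Ep300. The levels also depend on the transcript assumed. With the mean length of the coding transcripts Ep300 was at 1302 per kilobase and Crebbp at 406 in the controls, and in the spleens labelled Sirt1-deleted Ep300 was at 1135, Crebbp at 1055, Kat2b at 844 and Kat6a at 418.

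The partners of the enzymes were taken from 8 lists of subunits, cofactors, suppliers of acetyl-CoA and readers, 83 genes in all, which all passed the filter. Of these 13 rose and 27 fell, or 48.2% called against 36.1% of all tested genes, and 32.5% fallen against 19.4%. The lists were chosen with earlier results of these data known, so these shares are a description and no test of enrichment. Their median log2 difference was -0.10, against -0.00014 over all tested genes. The direction depends on the scaling: 23 rose and 17 fell after upper-quartile rescaling, which moved the share of higher genes among all calls from 46.4% to 64.3%, and 21 rose and 21 fell after quantile normalization.

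Transcription factors and coactivators that bind p300 and CBP were called in 11 of 13 cases, 3 higher and 8 lower, with a median log2 difference of -0.28. Over all tested genes 36.1% were called. The risen genes included the interferon signal transducer Stat2 (0.40, limma adjusted p = 0.00573) and the antiviral factor Irf3 (0.17, adjusted p = 0.0448). Those that fell included Creb1 (-0.43, adjusted p = 0.00250), the cAMP-responsive factor for which CBP is named, and Ncoa2 (-0.40, adjusted p = 0.00188), a relative of Ncoa3. The largest fall in this list was that of Cited4, a small protein that binds the same domain of p300 as several factors (-0.62, adjusted p = 0.0497). The calls of Cited4 and Irf3 were lost in 14 and 11 of 20 alternative settings. After upper-quartile rescaling 4 of the 13 rose and 5 fell.

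Subunits of SAGA and ATAC, the complexes of GCN5 and PCAF, moved in both directions, with 6 of 23 higher and 6 lower (median -0.10). The shares over all tested genes were 16.8% higher and 19.4% lower. The histone methylation reader Sgf29 (0.45, limma adjusted p = 4.34e-04), the scaffold Trrap (0.29, adjusted p = 0.00632) and the adaptor Tada2a (0.29, adjusted p = 0.00966) rose. Taf9 (-0.61, adjusted p = 0.00890), the deubiquitinase Usp22 (-0.56, adjusted p = 9.82e-04) and the adaptor Tada2b (-0.31, adjusted p = 0.0242) fell. Tada2a is the adaptor of ATAC and Tada2b that of SAGA. After upper-quartile rescaling 8 rose and 3 fell.

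Of 17 subunits of the TIP60 complex 4 rose and 4 fell (median -0.02), beside 16.8% and 19.4% of all tested genes. The histone reader Yeats4 (0.30, limma adjusted p = 0.00514) and Meaf6, shared with the MOZ and MORF complexes (0.24, adjusted p = 0.00729), were among those that rose. Epc2 (-0.46, adjusted p = 3.44e-04), Mbtd1 (-0.41, adjusted p = 4.39e-04) and the remodelling ATPase Ep400 (-0.26, adjusted p = 0.0182) were among those that fell. After upper-quartile rescaling 6 rose and 2 fell, and after quantile normalization 6 rose and 3 fell. Of the 4 MOZ and MORF subunits, Meaf6 was the 1 that was called, against 36.1% of all tested genes.

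Of 11 subunits of the MOF complexes NSL and MSL, 1 rose and 3 fell (median -0.08), which is near the 36.1% called over all tested genes. Kansl1, the scaffold of NSL (-0.46, limma adjusted p = 0.00236), Msl3 (-0.34, adjusted p = 0.00185) and Msl2 (-0.23, adjusted p = 0.00289) fell, and Kansl2 had 0.11 (adjusted p = 0.0429), a call lost in 12 of 20 alternative settings. The partners of HAT1 included 2 called of 7, against 36.1% of all tested genes. Both fell and are subunits of the chromatin assembly factor: Chaf1a (-0.29, adjusted p = 0.0400) and Chaf1b (-0.14, adjusted p = 0.0384). Their calls were lost in 10 (Chaf1a) and 13 (Chaf1b) of 20 alternative settings, among them upper-quartile rescaling and quantile normalization, and both stayed negative. Under each of these 2 scalings the list had 2 higher and 0 lower calls, the higher ones in other genes.

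Among 7 genes that supply acetyl-CoA, 4 fell and 0 rose (median -0.27), with 4 lower and 1 higher after upper-quartile rescaling. Over all tested genes 19.4% fell. The fallen suppliers included Acly, which makes acetyl-CoA from citrate in the cytosol and nucleus (-0.48, limma adjusted p = 0.00545), Pdha1, a subunit of pyruvate dehydrogenase (-0.36, adjusted p = 0.00144), and Acss2, which makes it from acetate (-0.33, adjusted p = 0.00834). Of the 3 BET proteins, the bromodomain readers of acetylated histones, 0 were called, and their median was 0.05; 2 were called higher after upper-quartile rescaling and 1 after quantile normalization. The neutrophil and macrophage marker sums were higher in every spleen labelled Sirt1-deleted than in any control, and their part in these differences and in those of the 10 acetyltransferase genes was not tested.

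**Figure D4:**
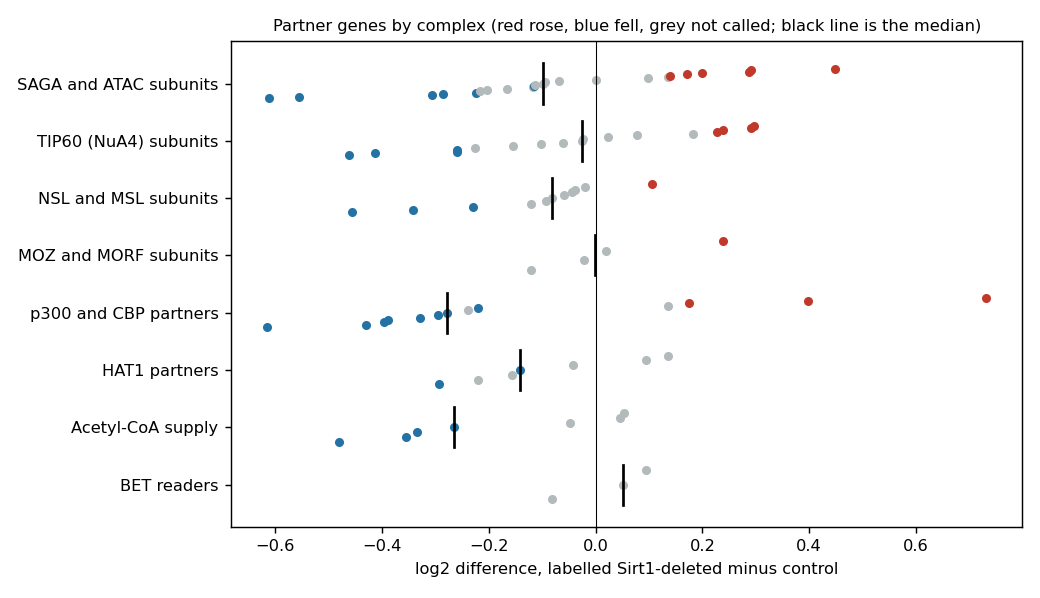
Log2 difference, labelled Sirt1-deleted minus control (horizontal axis), of the partner genes in 8 lists (rows); each point is a gene, red rose, blue fell, grey was not called by limma, and the black line is the median of the list. The lists of p300 and CBP partners and of acetyl-CoA supply have the lowest medians, -0.28 and -0.27.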

How the data were processed

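The authors deposited 1 table of expression for 20813 genes in 10 samples, a normalized signal: estimated counts divided by DESeq factors. Kallisto 0.44.0, DESeq and mm10 are named in the submitters' processing notes; annotation and filters are not given in the sources used here. Only 68.8% to 73.9% of low values fell within 0.1 of an integer number of reads, so read numbers could not be restored and no count test was run. Log2(value + 1), which understates changes of low genes, was fitted with limma 3.58.1 (R 4.3.3; group as the only term, intensity trend) for the 15276 genes with a mean of at least 10. P-values were adjusted by Benjamini-Hochberg over all of them (threshold 0.05). On simulated data with 200 of 15276 genes changed the fit found 70 of 100 simulated 2-fold changes, 55 of 100 simulated 1.5-fold changes and 7 false positives among 132 calls. In the real data 36.1% of genes were called, so these rates need not hold there. Paralog ratios were compared by exact permutation tests. Positions, transcript lengths and shared 31-letter words came from GENCODE M21 (mm10). Sample columns correlated at 0.961 to 0.988, and 0 pairs were identical; 0 value columns lay outside the 10 samples. Partners named are up to 3 risen and 3 fallen genes per list with the largest changes; 1 of them is not reported here. The members and lists were chosen with earlier results of these data known. Alternatives were other pseudocounts (0.1 and 5), filters (a mean of 1 or 50, or none), scalings, no trend, sample weights, a rank-sum test and leaving out each replicate; leaving out replicates 10 and 11, or 7 and 12, and giving T-lineage sums without Tcf7, was chosen after seeing the data.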

Additional observations from a re-analysis of the deposited data

Results flagged for a closer look

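The Kat5 value of control replicate 6 (1684 normalized counts) stood apart from the other 4 controls, which lay between 1572 and 1588. Its gap to the nearest control was 0.860 of the range of the group, above the critical value of 0.71 for 5 samples. Chance flags about 1 in 20 such groups, or 1.5 of the 30 examined.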

How the results depend on the processing

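No paired analysis was run, because the sources used here give no pairing and replicates 7 to 12 and 2 to 6 share no number. Whether spleens of the groups were paired is unknown. Crebbp, Kat2b, Kat6a and Ncoa3 kept their direction and their call in all 20 planned settings. Over all tested genes 1940 fell after upper-quartile rescaling, the rank-sum test called 3659 (1691 rose, 1968 fell), and leaving out replicates 7 and 12 left 3082 calls (1378 rose, 1704 fell). Leaving out each replicate in turn gave 4201 to 6260 calls (1971 to 2927 rose, 2230 to 3333 fell). Of the members 5 fell without replicates 10 and 11, and leaving out single replicates gave 4 to 6 calls (2 rose throughout, 2 to 4 fell). Of the partner genes 23 rose and 17 fell after upper-quartile rescaling, 21 rose after quantile normalization and 8 by the rank-sum test, and without replicates 7 and 12 there were 26 calls with 8 risen. Single omissions gave 27 to 44 partner calls (8 to 15 rose, 19 to 29 fell), the 8 without control replicate 2. The paralog differences ranged from 1.22 to 1.597 (Crebbp over Ep300), 0.26 to 0.40 (Kat2b over Kat2a) and 0.10 to 0.18 (Kat6b over Kat6a) over single omissions, and were 1.07 and 0.20 for the former pairs without replicates 7 and 12, where the Crebbp p was the smallest that 3 against 5 samples allow. The Kat6b over Kat6a ratio passed the exact permutation test without replicate 8 of the spleens labelled Sirt1-deleted (0.18, adjusted p = 0.0318) or control replicate 2 (0.17, adjusted p = 0.0238). With mean transcript lengths the control levels per kilobase were 2681 (Hat1), 1349 (Kat5), 819.9 (Kat8), 1302 (Ep300), 403 (Ncoa3), 656 (Kat2b), 406 (Crebbp) and 175 (Kat6b). Upper-quartile rescaling shifted the centre of all log2 differences to a median of 0.08. The call of Tada2b was lost after upper-quartile rescaling and without control replicate 2 or 3 (limma adjusted p up to 0.0621). The call of Ep400 was lost by the rank-sum test (adjusted p = 0.0823), after upper-quartile rescaling and without control replicate 2. The calls of Kansl2, Irf3, Cited4, Chaf1a and Chaf1b were lost without most single spleens, and all kept their sign. Omissions leave fewer samples; for the other settings the cause was not tested. The depth before normalization is unknown, so counting error could not be separated from the spread between spleens.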
